A study of Mus musculus with 2 samples.

Results

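The 9 genes described here move glucose and lactate across brain cell membranes or interconvert lactate and pyruvate: Slc2a1, Slc2a3, Slc2a13, Slc16a1, Slc16a3, Slc16a7, Bsg, Ldha and Ldhb. They were chosen by gene symbol, whatever their level, and are 9 of the 55536 annotated genes in the deposited gene table. Hippocampal total RNA came from 2 male adults of B6CASTF1/J, an F1 hybrid of the inbred C57BL/6J and CAST/EiJ mouse strains supplied by The Jackson Laboratory. The animals were 8 to 10 months old and no treatment is given in the labels. Animal 2 gave replicate 1 and animal 4 gave replicate 2, with 1 library each made from 300 ng of RNA, reduced in ribosomal RNA, keeping the strand and with ERCC control RNAs added. The labels call the tissue a layer of hippocampus, name no layer, and give both animals the same donor entry. They define 1 group, so there was no comparison of conditions, and the only contrast was between the 2 libraries.

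Glucose enters the brain through facilitative carriers of the Slc2a family, and different cell types rely mainly on different carriers. Slc2a1 (GLUT1) is the carrier of blood vessel endothelium and glia, and Slc2a3 (GLUT3) is the high-affinity carrier of neurons. Lactate crosses membranes with a proton through monocarboxylate transporters of the Slc16a family, and lactate dehydrogenase, a tetramer of the subunits encoded by Ldha and Ldhb, interconverts it with pyruvate. Because the RNA came from whole tissue, fewer cells of a type and less RNA per cell cannot be told apart, and no transcript here was assigned to a cell.

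Each library was quantified by the authors in 2 ways. The first quantifier, whose tables carry gene and transcript values, gave the levels below in TPM, transcript abundance adjusted for length and brought to a common total per library, with credible bounds that cover counting and assignment error in 1 library only. The second quantifier gave TPM per transcript, summed here per gene. Total expected counts were 23458117 and 29584307 in replicates 1 and 2. Both libraries held the markers of neurons, astrocytes, oligodendrocytes, microglia, endothelial and mural cells, and none of these lists had a gene at 0. The libraries stood apart in choroid plexus markers: the 9 genes summed to 17.9 TPM in replicate 1 and 1792 TPM in replicate 2, higher in replicate 2 for 9 of 9.

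Several results below turn on transcripts that share most of their bases, so the exon junctions that tell them apart are shown first, from the GENCODE M21 transcripts (mm10). In the first 6 sequences lower case is the last 20 bases of the upstream exon and capitals are the first 20 bases of the downstream exon. The deposited tables hold no counts of reads over junctions, so reads across these joins were not counted here. Slc2a1-201, the complete coding form, joins exon 4 (chr4:119132664-119132683, plus strand) to exon 5 (chr4:119133097-119133116), while Slc2a1-204 goes from the same place to chr4:119133352-119133371.
Slc2a1-201 exon 4 to 5: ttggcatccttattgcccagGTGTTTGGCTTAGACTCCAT
Slc2a1-204 exon 4 to 5: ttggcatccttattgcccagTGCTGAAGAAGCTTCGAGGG
For Bsg, the short form Bsg-205 joins exon 1 (chr10:79704565-79704584, plus strand) to chr10:79709671-79709690, and the long form Bsg-201 joins it to an extra exon at chr10:79708697-79708716.
Bsg-205 exon 1 to 2: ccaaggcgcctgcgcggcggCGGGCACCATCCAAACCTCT
Bsg-201 exon 1 to 2: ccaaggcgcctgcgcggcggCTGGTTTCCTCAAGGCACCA
For Ldhb, on the minus strand, the complete form Ldhb-201 joins exon 5 (chr6:142495568-142495587) to exon 6 (chr6:142494198-142494217), and the fragment Ldhb-202 joins it to the last exon (chr6:142490585-142490604).
Ldhb-201 exon 5 to 6: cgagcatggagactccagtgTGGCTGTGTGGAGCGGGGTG
Ldhb-202 exon 1 to 2: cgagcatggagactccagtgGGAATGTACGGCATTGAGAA
The Slc2a3 pair differs upstream instead: 15 coding bases in lower case precede the same 20 bases of shared exon in capitals (chr6:122740461-122740480, minus strand), from chr6:122742376-122742390 in Slc2a3-201 and chr6:122797802-122797816 in Slc2a3-202.
Slc2a3-201 exon 1 to 2: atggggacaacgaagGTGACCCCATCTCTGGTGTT
Slc2a3-202 exon 2 to 3: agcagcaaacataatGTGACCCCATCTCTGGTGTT

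All 9 genes were detected, taken as 1 TPM or more, in both libraries, and their mean levels spanned from 1.57 TPM for Slc16a3 to 328 TPM for Ldhb. The order of gene TPM from highest to lowest was Ldhb, Bsg, Ldha, Slc2a3, Slc2a1, Slc2a13, Slc16a7, Slc16a1 and Slc16a3. It was the same in both libraries and by both quantifiers, and the credible bounds of every pair of neighbours lay apart within each library. Across libraries only Ldhb and Bsg overlapped, since Bsg in replicate 2 (308.9 TPM) was above Ldhb in replicate 1 (308.1 TPM). Over the 13022 protein-coding genes detected in both libraries, Ldhb stood at the 98.8 percentile of mean TPM, Bsg at 98.4 and Ldha at 95.5. The most abundant glucose carrier, Slc2a3, stood at 83.5, and the most abundant monocarboxylate carrier, Slc16a7, at 54.8.

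**Figure D1:**
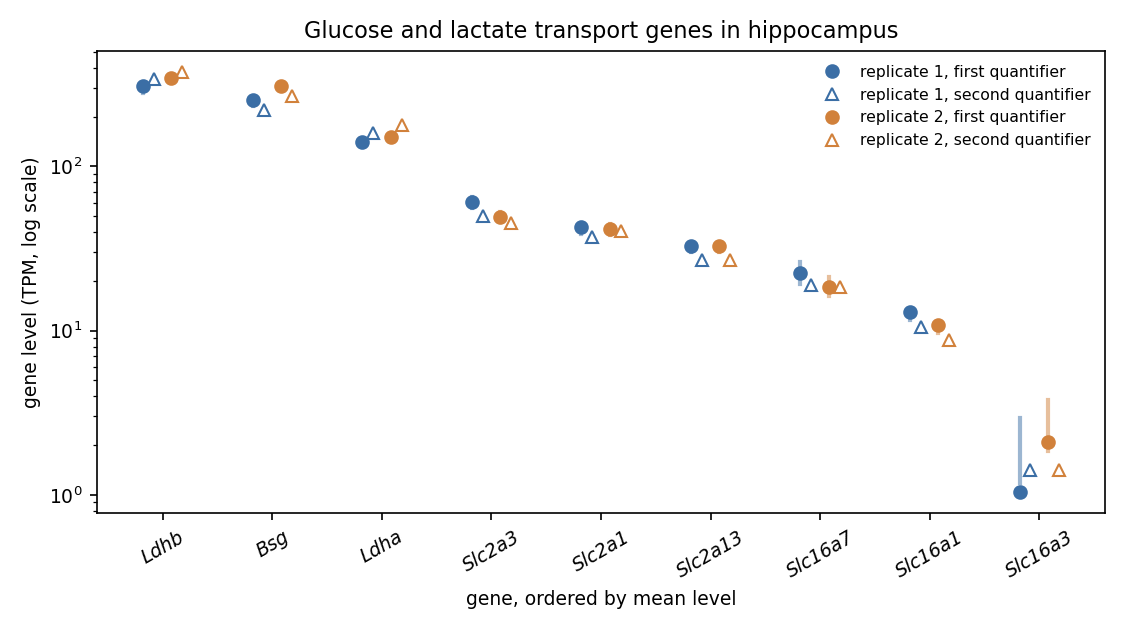
Level of each gene in TPM on a log axis, ordered by mean. Filled circles are the first quantifier with its credible bounds as bars, open triangles the second quantifier, blue replicate 1 and orange replicate 2. Levels run from Ldhb at 308.1 and 348 TPM down to Slc16a3 at 1.04 and 2.09 TPM.

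Of the glucose carriers, the neuronal Slc2a3 was the highest. Slc2a3 (chr6:122727809-122801640, minus strand) had 60.8 TPM in replicate 1 (bounds 56.0 to 65.2) and 49.1 TPM in replicate 2 (bounds 45.9 to 52.9), a mean of 54.9 ± 8.23 TPM (SD, n = 2). Replicate 1 was the higher on this scale. Slc2a1 (chr4:119108711-119137983, plus strand) had 42.5 TPM (bounds 38.9 to 45.1) and 41.7 TPM (bounds 38.5 to 44.5), a mean of 42.1 ± 0.544 TPM (SD, n = 2), nearly the same in both animals. The level of Slc2a3 was 1.43 times that of Slc2a1 in replicate 1 and 1.18 times in replicate 2, a mean ratio of 1.30 ± 0.179 (SD, n = 2). The bounds of the pair did not overlap in either library. By the second quantifier the ratio was 1.35 and 1.12.

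Slc2a13 (chr15:91267696-91573261, minus strand) encodes the proton-coupled myo-inositol carrier HMIT, which belongs to the glucose carrier family by sequence and is not a main route of glucose. It had 33.0 TPM in replicate 1 and 32.6 TPM in replicate 2, a mean of 32.8 ± 0.297 TPM (SD, n = 2). By gene TPM its level was close to that of Slc2a1 but below it in both libraries. This order reversed when only complete coding forms were taken, as given below. Together the 3 genes held 78.6% and 76.5% of the TPM of the 12 Slc2a genes measured, with Slc2a3 at 32.8% ± 3.26, Slc2a1 at 25.2% ± 0.952 and Slc2a13 at 19.6% ± 0.817 (SD, n = 2).

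The transcript mix differed between the carriers. Slc2a1-201, with the complete coding sequence, held 58.9% and 60.7% of the Slc2a1 TPM. Slc2a1-204 held 37.9% and 32.7%, and by the second quantifier 29.1% and 28.7%. Slc2a1-204 is annotated as a target of nonsense-mediated decay, the pathway that destroys messages with a premature stop. It lacks exon 5 of Slc2a1-201 (chr4:119133097-119133259, 163 coding bases), as the first pair of junctions shows. The length of that exon leaves a remainder of 1 base when divided by 3, so skipping it shifts the frame. All bases of Slc2a1-204 lie in exons of Slc2a1-201, so only reads over the join are its own, and the annotation gives it its weakest support level, 5. The incomplete form Slc2a1-203 had 0% and 4.07% by the first quantifier and 4.47% and 20.2% by the second.

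Slc2a3-201, with the complete coding sequence, held 72.8% and 80.8% of the Slc2a3 TPM. Slc2a3-202, an incomplete coding form of 601 bases, starts 58895 bases upstream of Slc2a3-201 and held 11.4% and 15.0% of the TPM from 48.8 and 70.1 expected counts. The second quantifier gave it 7.45% and 9.16%. The retained-intron fragment Slc2a3-206 (547 bases) held 9.10% in replicate 1 and 1.15% in replicate 2, from 34.9 and 4.81 expected counts. The fragment Slc2a3-205 had no counts by the first quantifier and 1.46% and 13.2% of the TPM by the second. Slc2a13 was nearly a single form: Slc2a13-202 held 95.1% and 95.4%.

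**Figure D2:**
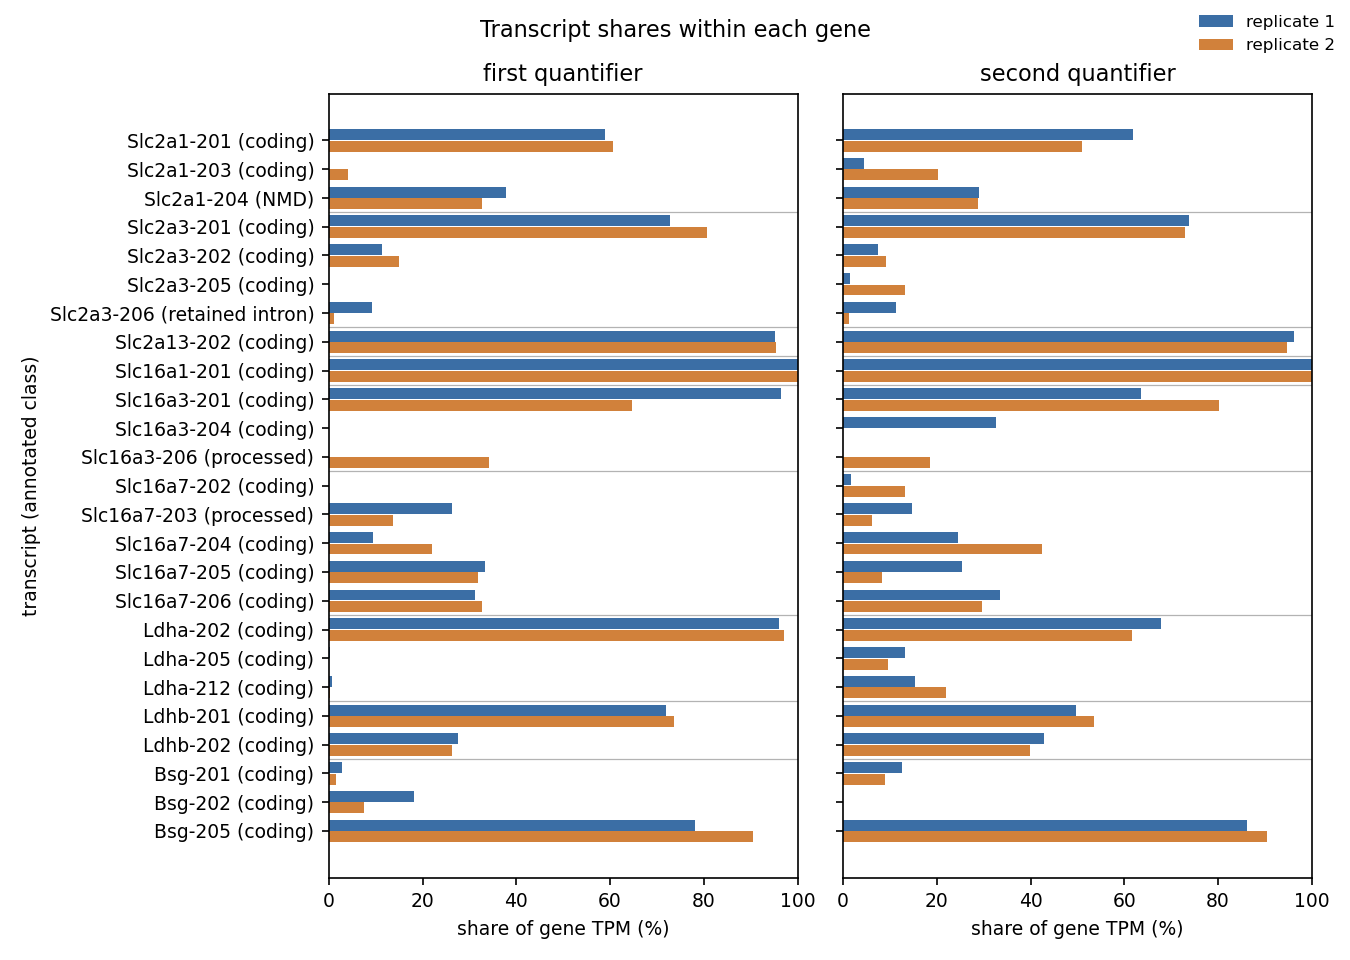
Share of its gene's TPM (%) for each of the 25 transcripts that reached 10% in either library by either quantifier, with the annotated class in brackets and grey lines between genes. Left, first quantifier; right, second quantifier; blue replicate 1, orange replicate 2. The complete forms of Ldha and Ldhb take a smaller share by the second quantifier, and Bsg-202 is present only by the first.

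The remaining glucose carriers were lower. Of 12 listed glucose carriers outside the 9 genes, 6 reached 1 TPM in both libraries. Slc45a1, a proton-coupled sugar carrier, had 21.6 and 20.9 TPM, Slc2a6 had 17.0 and 15.1, and Slc2a8 had 9.70 and 10.1. The fructose carrier Slc2a5 had 4.05 and 3.15 TPM. The insulin-responsive carrier Slc2a4 was at 1.61 and 1.89 TPM, both below their own credible bounds (1.80 to 3.74 and 2.03 to 3.89). Slc2a12 was at 3.13 and 4.77 TPM. No count fell on Slc2a7 or the sodium-glucose carrier Slc5a2 in either library, where 3 counts would be 0.128 and 0.102 CPM, counts scaled to the library total, the limit a count of 0 allows.

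Among the monocarboxylate transporters the neuronal form was the highest by gene TPM. Slc16a7 (chr10:125219270-125389465, minus strand) encodes MCT2, the high-affinity lactate carrier of neurons. It had 22.5 TPM in replicate 1 (bounds 19.2 to 26.1) and 18.5 TPM in replicate 2 (bounds 16.3 to 21.2), a mean of 20.5 ± 2.84 TPM (SD, n = 2). Slc16a1 (chr3:104638668-104658462, plus strand) encodes MCT1 of endothelium and glia. It had 13.1 TPM (bounds 11.6 to 13.3) and 10.8 TPM (bounds 9.72 to 11.1), a mean of 11.9 ± 1.62 TPM (SD, n = 2). Both genes were lower in replicate 2 in TPM, and the Slc16a7 to Slc16a1 ratio was 1.73 and 1.72. Slc16a3 (chr11:120948480-120960868, plus strand) encodes MCT4, the low-affinity carrier linked to lactate export from glycolytic cells such as astrocytes. It had only 33 and 62 expected counts, or 1.04 TPM (bounds 1.18 to 2.96) and 2.09 TPM (bounds 1.86 to 3.78). The value of replicate 1 lay below its own bounds, and the second quantifier gave 1.41 and 1.42 TPM, so no difference between the animals was detectable at this depth. The ratio of its scaled counts, replicate 2 over replicate 1, was 1.51 with a 95% interval of 0.976 to 2.38 that covers counting error only.

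The summed level of Slc16a1 and Slc16a3 was below that of Slc16a7: the ratio of Slc16a7 to this sum was 1.60 in replicate 1 and 1.44 in replicate 2, a mean of 1.52 ± 0.112 (SD, n = 2). Part of the Slc16a7 level lay in transcripts that lack the complete coding sequence. The 4 annotated complete forms of Slc16a7 share 1 coding sequence of 1452 bases. They held 64.4% of the gene TPM in each library, and 60.7% and 51.3% by the second quantifier. Slc16a7-205, annotated at the weakest support level, 5, held 33.3% and 31.8%, and by the second quantifier 25.4% and 8.34%. Slc16a7-206, whose last exon has 9020 bases against 805 in Slc16a7-205, held 31.1% and 32.6%, and 33.6% and 29.7% by the second. Because it is long, Slc16a7-206 held 78.5% and 79.0% of the gene's expected counts. The short noncoding transcript Slc16a7-203 (292 bases) held 26.2% and 13.6% of the TPM from 16 and 9.22 counts, 1.17% and 0.582% of the gene's counts. The incomplete Slc16a7-204 (711 bases) held 9.33% and 22.0%, and by the second quantifier 24.6% and 42.5%. Slc16a7-202, another complete form, had no counts by the first quantifier and 1.76% and 13.3% of the TPM by the second.

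With only the transcripts that carry the complete main coding sequence, an alternative chosen after seeing the data, Slc16a7 had 14.5 and 11.9 TPM against 13.1 and 10.8 for Slc16a1. The ratio of Slc16a7 to Slc16a1 plus Slc16a3 was then 1.03 and 0.981, and 1.00 and 0.954 by the second quantifier. On this scale the ratio lay on both sides of 1, and the neuronal form no longer stood above the glial and vascular forms together in both libraries. Slc16a1 has a single annotated transcript, so its level did not depend on this choice. Slc16a3-201 held 96.4% and 64.6% of the small Slc16a3 level, and the fragment Slc16a3-206 0% and 34.1%, the latter from 4 counts. Slc16a3-204 appeared by the second quantifier only, with 32.7% in replicate 1 from 1 count and 0% in replicate 2.

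The same restriction moved the ratio of the glucose carriers the other way. Slc2a3 had 44.2 and 39.7 TPM in its complete form and Slc2a1 had 25.0 and 25.3. Their ratio was 1.77 and 1.57, or 1.60 in both libraries by the second quantifier, above the 1.43 and 1.18 of all transcripts. Slc2a13, below Slc2a1 by gene TPM, was above it on this scale, at 31.35 and 31.03 TPM. By the second quantifier Slc2a13 had 25.7 and 25.6 TPM in its complete form, and Slc2a1 had 23.0 and 20.7.

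**Figure D3:**
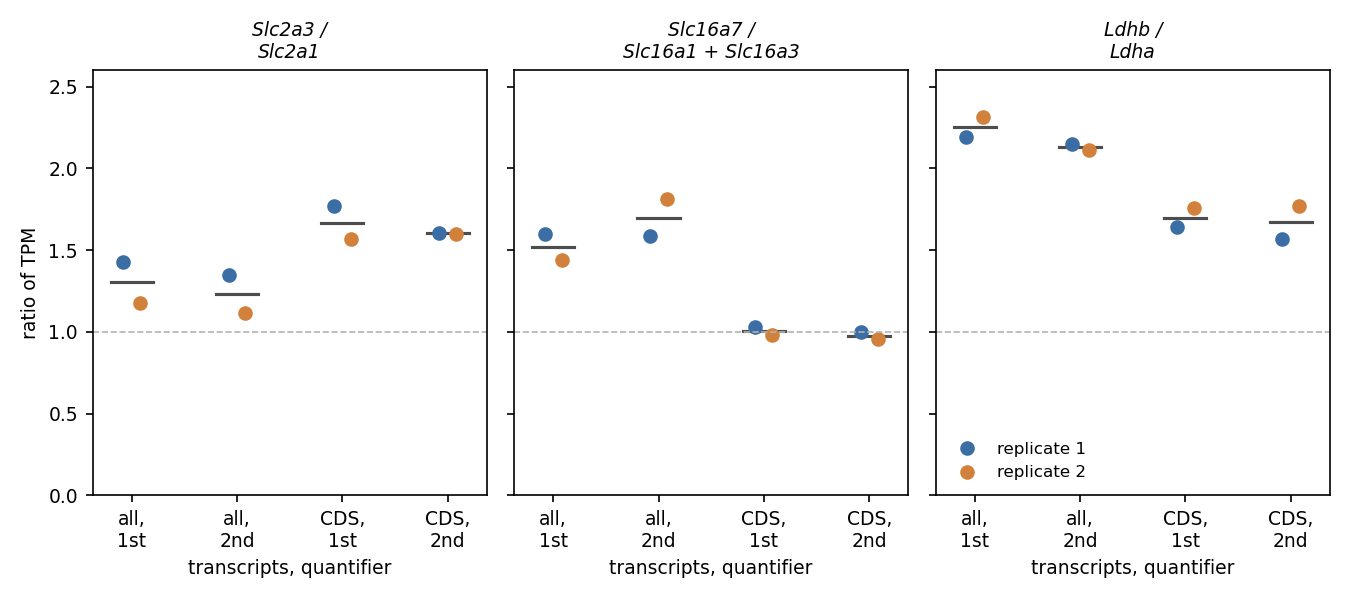
Ratio of TPM within each family, for all transcripts of the genes (all) and for those with the complete main coding sequence (CDS), by the first (1st) and second (2nd) quantifier. Points are libraries, blue replicate 1 and orange replicate 2, bars are their means, and the dashed line is equality. The monocarboxylate ratio falls from 1.52 to 1.01 with the complete forms only, while the Slc2a3 to Slc2a1 ratio rises from 1.30 to 1.67.

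The 3 monocarboxylate members held 38.8% and 36.3% of the TPM of the 14 Slc16a genes measured, a smaller part of their family than the glucose carriers of theirs. Of 13 further monocarboxylate transporters on the list, 7 reached 1 TPM in both libraries. Slc16a11 had 22.0 and 16.6 TPM, near the level of Slc16a7. Slc16a14 had 6.36 and 5.95 TPM, Slc16a13 4.06 and 3.60, Slc16a6 3.23 and 3.30, the aromatic amino acid carrier Slc16a10 1.92 and 1.27, and the creatine carrier Slc16a12 1.26 and 1.37. No count fell on Slc16a5 or Slc5a12 in either library.

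Bsg (chr10:79704491-79711969, plus strand) encodes basigin, the membrane glycoprotein that carries MCT1 and MCT4 to the cell surface. It had 253 TPM in replicate 1 and 308.9 TPM in replicate 2, a mean of 281 ± 39.4 TPM (SD, n = 2). Replicate 2 was the higher, and both values lay above their own credible bounds (235 to 249 and 291 to 305). The level of Bsg was 6.91 and 9.84 times the sum of the 3 monocarboxylate transporters. Its relative Nptn (neuroplastin), a partner of plasma membrane calcium pumps, was higher, at 382 and 397 TPM. Emb (embigin), the partner of MCT2 in several tissues, had 21.4 and 20.5 TPM. Bsg thus held 38.6% and 42.5% of the TPM of these 3 related genes.

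Most Bsg RNA was assigned to the short form. Bsg-205 held 78.1% and 90.4% by the first quantifier and 86.3% and 90.5% by the second. Bsg-201 adds exon 2 (chr10:79708697-79709044, 348 coding bases), which encodes the additional immunoglobulin-like domain of the form known from photoreceptors. It held 2.79% and 1.58% by the first quantifier, and 12.6% and 8.90% by the second. The quantifiers thus differed on its share by more than the animals did. Bsg-202 starts 73 bases upstream of exon 2 of Bsg-205 and lacks exon 1. It held 18.2% and 7.47% by the first quantifier, and by the second its TPM was below 1e-07. The quantifiers thus also differed on Bsg-202, which shares all but those 73 bases with Bsg-205.

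Ldhb exceeded Ldha. Ldha (chr7:46841475-46855627, plus strand) encodes the LDH subunit whose tetramer favours the reduction of pyruvate to lactate. It had 141 TPM in replicate 1 (bounds 132 to 143) and 150.1 TPM in replicate 2 (bounds 142 to 152), a mean of 145 ± 6.63 TPM (SD, n = 2). Ldhb (chr6:142490249-142507957, minus strand) encodes the subunit whose tetramer favours the oxidation of lactate and predominates in neurons. It had 308.13 TPM (bounds 280.3 to 307.66) and 348 TPM (bounds 323 to 349), a mean of 328 ± 27.9 TPM (SD, n = 2). The value of replicate 1 lay just above its own bounds. The level of Ldhb was 2.19 and 2.32 times that of Ldha, a mean ratio of 2.25 ± 0.0895 (SD, n = 2), and 2.15 and 2.11 times by the second quantifier. Both animals gave the same order. The pair held 98.8% and 99.1% of the TPM of the 5 Ldh genes. Ldhd, the D-lactate dehydrogenase, had 4.49 and 3.98 TPM, Ldhal6b was below 1 TPM, and the testis gene Ldhc had no count in either library.

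Part of the excess of Ldhb lay in a short fragment. Ldhb-201, the complete form, held 71.9% and 73.7% of the Ldhb TPM. Ldhb-202, of 437 bases, is annotated with an incomplete start and held 27.6% and 26.2%, from 9.65% and 9.04% of the gene's counts. The second quantifier gave it 42.8% and 39.8%. It joins exon 5 directly to the last exon, as the third pair of junctions shows, without exons 6 (chr6:142494100-142494217) and 7 (chr6:142492493-142492616), together 242 bases. Of its 437 bases, 356 are the last exon, and all lie in exons of Ldhb-201. With the complete forms only, Ldhb had 221 and 256 TPM, Ldha had 135 and 146, and the ratio was 1.64 and 1.76 (1.57 and 1.77 by the second quantifier). Ldhb remained the higher subunit in both libraries on this scale too.

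Ldha was nearly all Ldha-202 by the first quantifier, at 96.0% and 97.0%, but that transcript held 67.9% and 61.6% by the second. The second quantifier placed 13.1% and 9.68% on Ldha-205 and 15.4% and 21.9% on Ldha-212, fragments of 406 and 513 bases to which the first quantifier gave under 1%. Ldha also shares stretches of 50 bases of its coding sequence with 14 processed pseudogenes, and Ldhb shares 35.6% of such stretches with 1, Gm5514. Gm5514 was listed at 7.65 and 8.75 TPM, and the highest pseudogene that shares Ldha stretches, Gm13315, at 2.93 and 0.71 TPM. How reads were divided among these copies can move the Ldh levels, which are uncertain to that extent. Slc2a1 shares 3.92% of its stretches with an antisense gene, and the other 6 genes share none. Of the annotated genes that overlap any of the 9, none was above 1.18 TPM in either library except the ribosomal RNA gene Gm24647 inside Slc2a13, at 5.45 and 0 TPM. Within the families, coding sequences matched at 71.3% of aligned positions for Ldha and Ldhb, with no shared run over 18 bases, at 67.7% for Slc2a1 and Slc2a3 and at 61.1% for Slc16a1 and Slc16a7, each with a longest run of 20 bases.

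Many other genes also had a large part of their TPM outside complete coding forms. By the first quantifier, complete coding transcripts held a median of 83.0% of TPM over the 9 genes. The range was 59.8% for Slc2a1 to 100% for Slc16a1. The median over the 13022 detected protein-coding genes was 81.1% (quartiles 60.0% and 96.5%). The median of the 9 was the value of Slc16a3, at 100% and 66.0% from 33 and 62 counts. By the second quantifier Ldha, Ldhb, Slc16a7 and Bsg had lower shares in both libraries, and no gene had a higher share in both. The median over all detected genes was not computed with it.

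Genes that feed or regulate the pathway were also present. Mpc1 and Mpc2, the subunits of the mitochondrial pyruvate carrier, had 71.5 and 75.1 TPM and 60.2 and 64.7 TPM. Txnip and Arrdc4, arrestin-like inhibitors of glucose uptake, had 17.0 and 11.4 TPM and 6.43 and 4.96 TPM. The lactate receptor gene Hcar1 was below 1 TPM in both libraries, at 0.60 and 0.46 TPM from 27 and 28 counts. In all, 20 of the 35 listed pathway genes reached 1 TPM in both libraries and 5 had no counts in either.

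**Figure D4:**
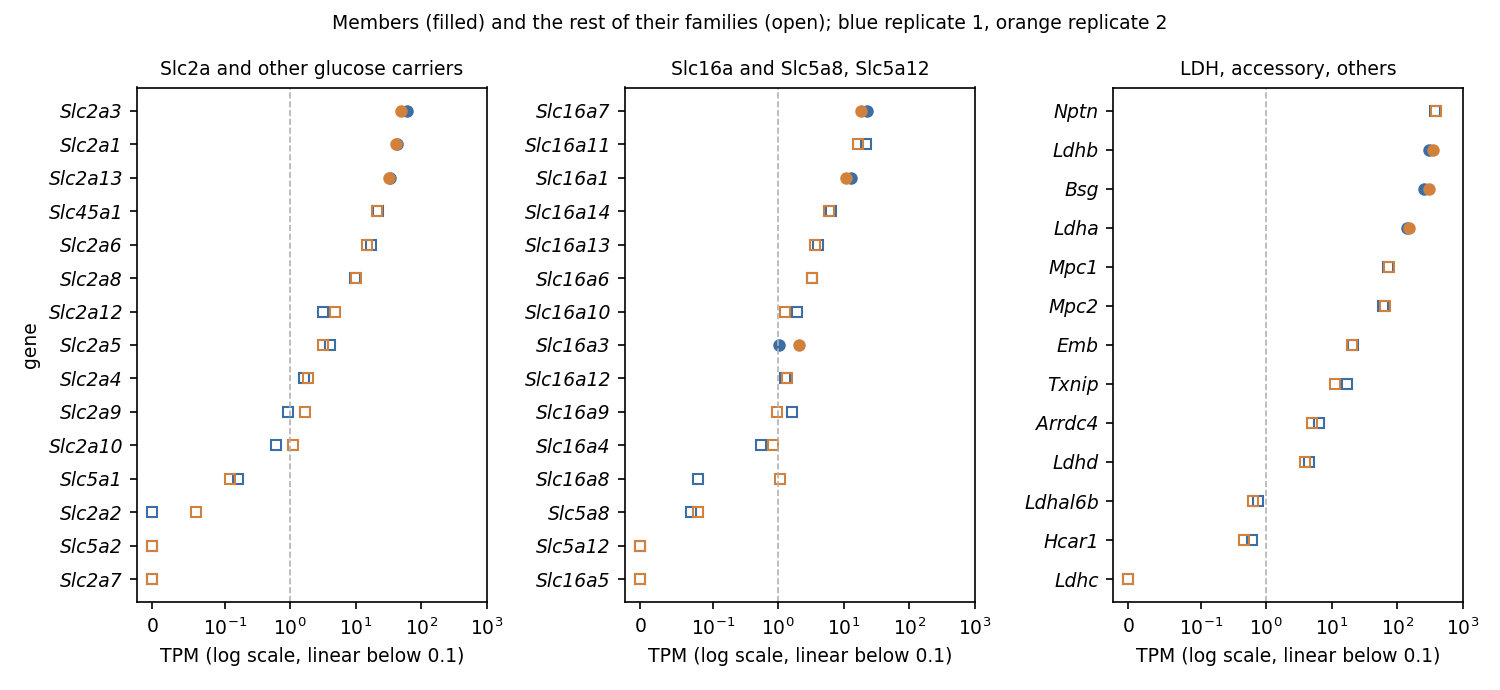
Levels in TPM of the 9 genes (filled circles) and of listed genes of their families and pathway (open squares), on an axis that is logarithmic above 0.1 and linear below; the dashed line is 1 TPM, blue replicate 1 and orange replicate 2. Slc16a11 sits beside Slc16a7, while no Slc2a gene outside the 3 members exceeds 17.0 TPM.

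None of the 9 genes passed the test of a difference between the libraries. By edgeR's residual deviance test with Benjamini-Hochberg adjustment, 130 of 16123 genes tested passed an adjusted p of 0.05, 0.806% of them, and 0 of the 9 passed. None of the 9 reached an unadjusted p of 0.05 either, against 778 of all genes, and 0 of the 9 passed the adjusted threshold under each of the 7 other settings tried. With no filter on low counts, Bsg reached an unadjusted p of 0.046 in this edgeR test. With 1 group of 2 animals such p-values compare these libraries only, and no exact permutation test can reach 0.05. The dispersion was estimated from the same 2 libraries. The main test therefore asks only whether a gene differs more than genes of like level, and it does not measure the typical difference between the animals. The log2 ratios of scaled counts, replicate 2 over replicate 1, ran from -0.16 for Slc16a1 to 0.57 for Slc16a3, with Bsg at 0.41 (unadjusted p = 0.0605, edgeR adjusted p = 1.00), Ldhb at 0.31 and Ldha at 0.22. Slc2a1 was at 0.07, Slc2a3 at -0.12, Slc2a13 at 0.10 and Slc16a7 at -0.11. Their median size was 0.16 against 0.19 over all genes tested. This order did not hold in every setting. It was 0.172 against 0.167 with 1 CPM or more required in both libraries, and 0.182 against 0.181 with total-count scaling. In the remaining alternatives the 9 genes had the smaller median. Scaled to the control RNAs, the median of all genes moved from 0.00 to -0.23, and Slc2a1, Slc2a13 and Ldha turned from above to below 0. The deposited credible bounds gave another reading, since those of the 2 libraries lay apart for 4 of the 9 genes (Slc2a3 and Slc16a1 lower in replicate 2, Ldhb and Bsg higher), against 23.4% of the detected protein-coding genes. These bounds hold no spread between animals.

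Among the 26 pathway genes tested outside the 9, 1 was called. Slc2a12, which encodes the carrier GLUT12, had 91 and 369 expected counts, or 3.87 and 12.6 CPM, a log2 ratio of 1.69 (edgeR adjusted p = 0.0321), higher in replicate 2. In TPM its values were 3.13 and 4.77, a smaller difference. It did not pass with spike-in scaling (adjusted p = 0.462) or by the second quantifier (adjusted p = 0.104), and the remaining alternatives gave 0.00792 to 0.0396. Slc16a8, which encodes MCT3, a carrier known from retinal pigment epithelium and choroid plexus, had 2 and 34 counts and did not pass (edgeR adjusted p = 0.270). It passed with a common dispersion (adjusted p = 0.00188), and the other alternatives that tested it gave 0.240 to 0.580. Its ratio of scaled counts was 13.7 with a counting interval of 3.51 to 118. The choroid plexus markers moved with both genes: all 9 were higher in replicate 2, 8 of the 9 were called, and Ttr went from 8.68 to 1703 TPM. The part of choroid plexus RNA in these 2 results was not tested. The lists of the other 7 cell types had no called gene. Sums over neuronal, astrocytic, endothelial, mural, oligodendrocyte and microglial markers in replicate 2 were 0.921 to 1.15 times those in replicate 1, and red blood cell markers summed to 465 and 334 TPM.

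**Figure D5:**
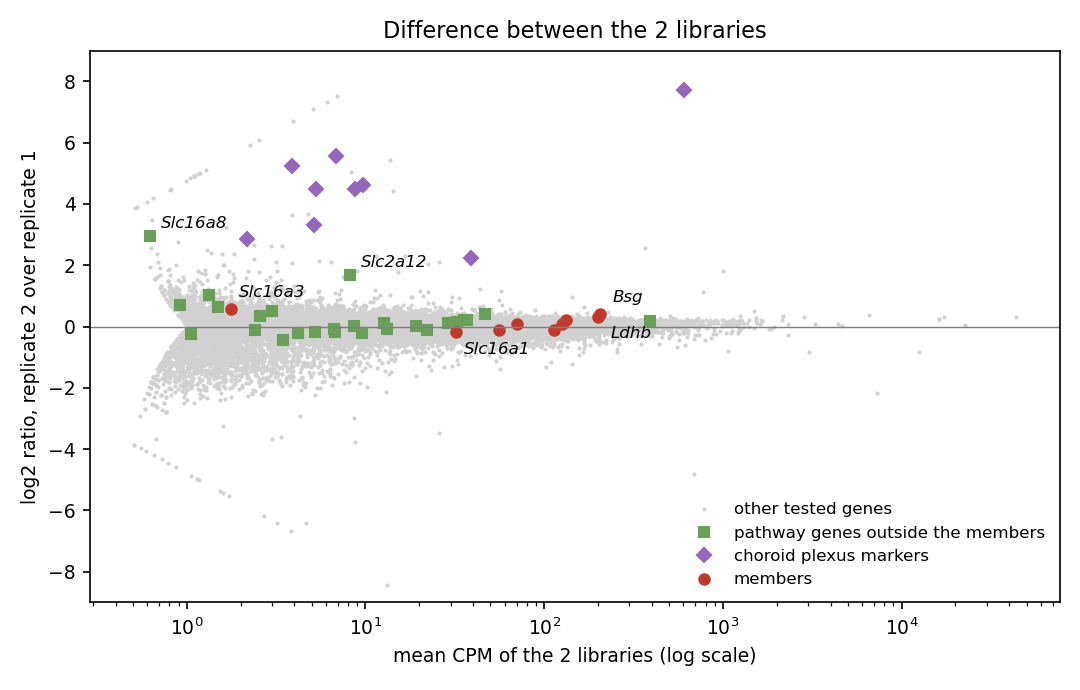
Log2 ratio of scaled counts, replicate 2 over replicate 1, against mean CPM on a log axis for the 16123 genes tested (grey). Red circles are the 9 members, green squares the pathway genes outside them, purple diamonds the choroid plexus markers. The members lie between -0.16 and 0.57, while the 9 choroid plexus markers, Slc16a8 and Slc2a12 lie above. So do the pathway genes Slc2a9 (1.03), Slc16a4 (0.71) and Slc2a10 (0.65), which were not called.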

How the data were processed

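Ribosome-reduced total RNA libraries of 2 hippocampi, 1 per animal, were used. Per the file headers, the authors quantified both on mm10 with GENCODE M21; the sources used here do not name the programs or their versions. Per the file headers, the deposited expected counts estimate the reads of each feature and are unscaled between libraries. The deposited TPM values are scaled to effective length and a common sum, and the deposited percent values divide a gene's TPM among its transcripts. The deposited bounds of TPM are an interval signal whose level is not stated. From the second transcript tables, the estimated counts and TPM that the authors deposited were summed by gene identifier here.

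Expected counts were rounded and tested with edgeR 4.0.16 (R 4.3.3): TMM scaling, genes with 1 CPM or more in at least 1 library, an intercept-only design with trended dispersion, the residual deviance compared to the chi-square distribution (1 degree of freedom), with p adjusted by Benjamini-Hochberg over all genes tested. The script was tested on simulated data. Log2 ratios used a prior count of 2. Rows of control RNAs and unannotated features (0.210% and 0.243% of counts) were left out. Exon structure and sequences came from GENCODE M21; 50-base stretches were searched over all its transcripts in both orientations, and coding sequences were aligned with Biopython 1.88. Named were all 9 genes, their transcripts with a share of 10% or more in either library by either quantifier, pathway genes of 1 TPM or more in both libraries, and any pathway gene called. The level of 1 listed gene is not reported here. Other genes and fragments named were chosen after their values were seen. The members, lists and tests were chosen with earlier results of these data known. Alternatives were other scalings, filters, dispersion, the second quantifier, posterior mean TPM, protein-coding transcripts only and leaving out each library. Without molecular identifiers, reads may be copies of 1 molecule, so intervals and limits cover counting error only.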

Additional observations from a re-analysis of the deposited data

How the results depend on the processing

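The 9 genes had 0 calls under all 7 alternative settings of the edgeR test. The count over all genes was 130, from 87 with 1 CPM or more required in both libraries to 135 with total-count scaling, except 341 with a common dispersion. Spike-in scaling turned the log2 ratios of Slc2a1 (-0.16), Slc2a13 (-0.13) and Ldha (-0.013) below 0. The Slc2a3 to Slc2a1 ratio (1.30) moved to 1.81 with transcripts annotated as protein coding, and to 1.67 and, by the second quantifier, 1.60 with complete main coding forms. The Slc16a7 to Slc16a1 plus Slc16a3 ratio (1.52) moved to 1.70 by the second quantifier, 1.25 with protein-coding transcripts, and 1.01 and 0.978 with complete forms. The Ldhb to Ldha ratio (2.25) moved to 2.13 by the second quantifier, and 1.70 and 1.67 with complete forms. The complete-form settings were chosen after seeing the data. Leaving out each library gave 1.18 to 1.43, 1.44 to 1.60 and 2.19 to 2.32 for the 3 ratios, and left no residual degree of freedom for the edgeR test. Of the 36 leading transcript shares recomputed, 9 moved by more than the SD between animals, all by the second quantifier or posterior mean TPM. Among them was Ldha-202, from a mean of 96.5% to 64.8% by the second quantifier. Shares with 1 library left out lie within that SD by construction and could not move. Nor could the share of the single Slc16a1 transcript. Slc16a3 is limited by depth. Reads from the CAST/EiJ alleles were quantified on the mm10 reference, and the effect was not tested.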
